A study of Mus musculus with 12 samples.

Results

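The actin cytoskeleton of IL-1-treated fibroblasts was described through 42 genes, which encode the actins, the tropomyosins, calponins and transgelins that bind along actin filaments, the myosin II motor, filament crosslinkers and adhesion proteins, 2 actin turnover factors, and the transcription regulators SRF, MRTF, YAP, TAZ and TEAD with 3 YAP target genes. The genes were taken by symbol, and all 42 were found among the 27179 gene IDs of the count tables. The cells were RelA-/- RelA-DsRed NIH3T3 fibroblasts, an immortalized mouse embryonic fibroblast line that lacks its own RelA, an NF-kB subunit, and carries a red fluorescent RelA fusion. They were given 0.2 ng/mL IL-1b, an inflammatory cytokine, for 2 h in microfluidic devices, and polyA RNA was sequenced in 3 libraries. The labels give LPS, PAM and media groups as well, but each of their 9 tables repeated the IL-1 replicate 3 table, so those groups were not analysed here and no difference between treatments could be measured. The labels give neither the promoter that drives the fusion nor whether the line is 1 clone, and they do not say that the libraries came from separate cultures, so each SD measures only the spread between 3 libraries and may be technical.

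Actin monomers assemble into filaments that form stress fibres with myosin II, and vertebrates carry separate genes for cytoplasmic, smooth muscle and striated muscle actins. A fibroblast that becomes a myofibroblast builds smooth muscle actin (Acta2) into its stress fibres. Smooth muscle cells also use their own calponin, transgelin and myosin genes. Free actin monomers hold the MRTF cofactors outside the nucleus. When monomers are used up by assembly, MRTF joins SRF on a DNA element called the CArG box, while YAP and TAZ enter the nucleus of stretched or spread cells and act through TEAD factors.

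The 3 libraries held 17254518, 18091073 and 18578859 counts on genes. Levels are given as CPM, the count scaled to the library's total, and as CPM per kb of merged exons where genes are compared with each other. A count of 0 allows up to 0.174, 0.166 and 0.161 CPM in libraries 1, 2 and 3, a limit that covers counting error only. Of the 42 genes, 37 reached 1 CPM in each library, against 41.3% of all gene IDs, and 40 had a count in every library. The 5 genes that did not reach it were Acta1, Actc1, Cnn1, Myh11 and Lmod1, all of them muscle type genes. Together the 42 genes took 2.07% ± 0.0326 of all counts (SD, n = 3), 24 of them averaged at least 100 CPM, and the 5 highest by CPM were Actb, Tpm1, Tpm4, Pfn1 and Cnn2.

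**Figure D1:**
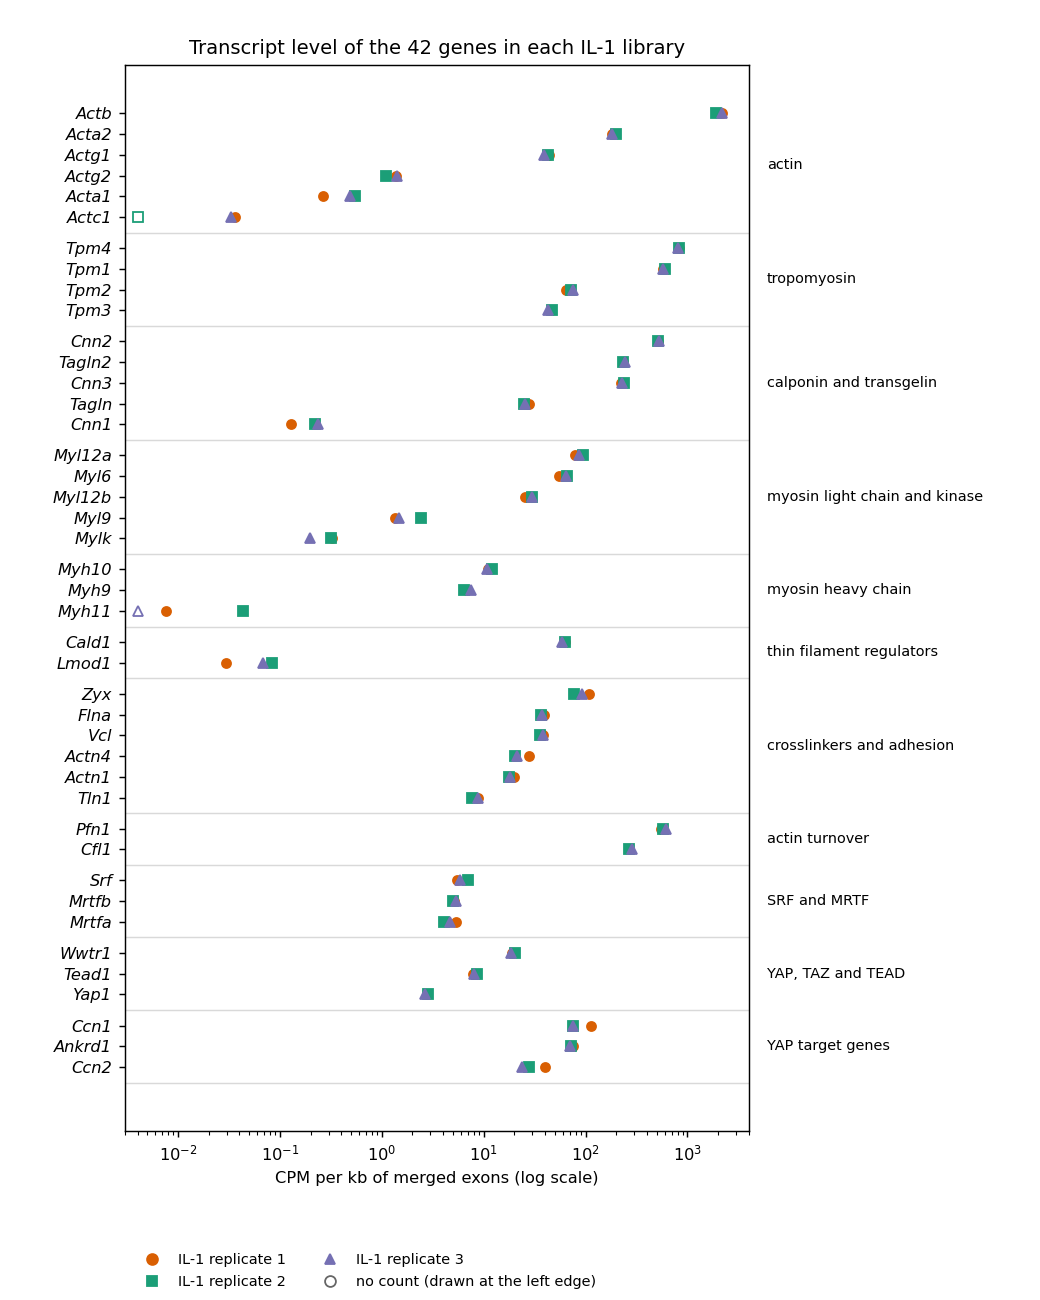
Level of each of the 42 genes in the 3 IL-1 libraries, in CPM per kb of merged exons on a log axis, grouped by role and ordered by level within a role. Each symbol is 1 library, and an open symbol at the left edge is a library with no count. Actb lies near 2087 CPM per kb, and Acta1, Actc1, Cnn1, Mylk, Myh11 and Lmod1 lie below 1 CPM per kb.

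Among the actins, the cytoplasmic gene Actb made up most of the family, and the smooth muscle gene Acta2 ranked 256th of 21610 genes per kb. Acta2 (chromosome 19, 34240336 to 34255585, mm10) had 400.3, 439 and 403 CPM in libraries 1, 2 and 3, or 189 ± 9.88 CPM per kb (SD, n = 3). Actg2, the enteric smooth muscle actin, had 37, 31 and 41 counts, or 1.30 ± 0.172 CPM per kb. Acta2 therefore supplied nearly all of the smooth muscle actin transcripts in each of the 3 libraries. Actb (chromosome 5, 142903115 to 142907976) had 5787, 5148 and 5837 CPM, or 2087 ± 143 CPM per kb, which placed it ninth of 21610 genes ranked per kb. Actg1, the other cytoplasmic actin, had 115, 114 and 105 CPM, or 41.8 ± 2.11 CPM per kb. The ranges of Acta2, Actb and Actg1 did not overlap. Acta1, the skeletal muscle actin, had 7, 15 and 14 counts, and Actc1, the cardiac actin, had 1, 0 and 1.

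Acta2 stood 4.52 ± 0.266-fold above Actg1 and at 0.0909 ± 0.0114 of Actb, per kb and within the same library (SD, n = 3). Actb stood 50.1 ± 5.18-fold above Actg1. With length counted only over 50-base stretches found in no transcript of another gene, Acta2 stood 1.56-fold and Actb 25.9-fold above Actg1, and Acta2 at 0.0604 of Actb. These ratios depend on how well reads of near-identical genes are told apart. The coding sequences of Actb and Actg1 were identical at 88.6% of aligned bases, with a longest identical run of 62 bases, and those of Acta2 and Actb at 82.8%, with a longest run of 47 bases. Of the 50-base stretches of each gene's longest coding transcript, 99.6% in Acta2, 85.8% in Actb and 43.3% in Actg1 occurred in no transcript of another gene. Actg1 shared stretches with 22 other genes, 12 of them pseudogenes, so its level is uncertain, since how reads with several matches were counted is not given in the sources used here. The starts of the coding sequences, where the actin isoforms differ most in their N-termini, are shown for all 6 genes from the GENCODE M21 transcripts on GRCm38. Capitals mark bases that differ from the aligned base of Actb or that have no aligned base there, over coding bases 1 to 60, 5′ to 3′.
Acta2: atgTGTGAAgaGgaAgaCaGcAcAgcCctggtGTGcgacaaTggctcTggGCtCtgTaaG
Actg2: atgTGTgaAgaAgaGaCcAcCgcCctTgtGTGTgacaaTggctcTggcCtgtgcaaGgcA
Actb: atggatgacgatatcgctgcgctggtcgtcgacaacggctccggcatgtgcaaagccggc
Actg1: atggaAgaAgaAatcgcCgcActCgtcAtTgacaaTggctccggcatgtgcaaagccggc
Acta1: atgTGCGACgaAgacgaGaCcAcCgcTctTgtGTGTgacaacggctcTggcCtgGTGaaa
Actc1: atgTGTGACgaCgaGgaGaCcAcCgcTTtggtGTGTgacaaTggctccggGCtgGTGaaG
In these 60 bases Acta2 differed from Actb at 17 aligned positions and carried 6 bases with no counterpart, Actg2 differed at 17 and carried 3 such bases, and Actg1 differed at 9 and carried none. The striated muscle genes Acta1 and Actc1 differed at 16 and 19 aligned positions, with 6 such bases each.

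Summed per kb, smooth muscle actin (Acta2 and Actg2) made up 7.69%, 9.29% and 7.70% of actin transcripts in libraries 1, 2 and 3, a mean of 8.23% ± 0.918, against 91.8% ± 0.923 for cytoplasmic actin (Actb and Actg1). Striated muscle actin (Acta1 and Actc1) made up 0.0198% ± 0.00643. The smooth muscle share was lower in each of the 3 libraries. With 3 libraries a two-sided exact sign permutation cannot give a p below 0.25, so no test of such shares was made. In bulk RNA, a small fraction of cells with much Acta2 cannot be told apart from an even level in every cell.

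The tropomyosins, coiled-coil proteins that lie along the actin filament and set its partners, were led by Tpm4 and Tpm1. Tpm2, counted here as the smooth muscle type gene, had 186, 208 and 221 CPM, or 70.4 ± 6.13 CPM per kb. Tpm4, which makes a cytoplasmic tropomyosin, had 1820.1, 1831 and 1788 CPM, or 823 ± 10.1 CPM per kb. Tpm3, the other mostly cytoplasmic gene, had 277, 282 and 262 CPM, or 45.0 ± 1.73 CPM per kb. Tpm1, whose splice forms serve muscle and cytoplasmic filaments alike, had 3737, 3931 and 3744 CPM, or 587 ± 16.95 CPM per kb. The ranges of the 4 genes did not overlap per kb of merged exons, but 2 of the pairs turned with the length used. Tpm1 stood at 0.713 ± 0.0160 of Tpm4 by merged exons and at 1.55 by the longest transcript, and Tpm2 stood 1.57 ± 0.184-fold above Tpm3 by merged exons and at 0.769 of it by the longest transcript. Tpm2 made up 4.62% ± 0.409 of tropomyosin transcripts, against 56.9% ± 0.654 for Tpm3 and Tpm4 together and 38.5% ± 0.459 for Tpm1. Gene-level counts do not separate the muscle and cytoplasmic forms of Tpm1, so its share was kept apart. Splice forms of Tpm2 are not separated either, so its share covers the whole gene and does not measure a smooth muscle form. In Tpm3, 37.6% of the 50-base stretches occurred in no transcript of another gene, so its level is uncertain as well.

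Calponins and transgelins are related actin-binding proteins that steady stress fibres, and their smooth muscle members are textbook markers of contractile smooth muscle. Cnn1, the smooth muscle calponin, had 6, 11 and 12 counts, or 0.195 ± 0.0593 CPM per kb. Cnn2 had 1258, 1265 and 1286 CPM, or 516 ± 5.90 CPM per kb, and Cnn3 had 684, 731 and 689 CPM, or 231 ± 8.45 CPM per kb. The ratio of Cnn2 to Cnn3 was 2.24 ± 0.0874, and 1.05 with all counts kept and length taken only over unique stretches. Cnn1 made up 0.0261% ± 0.00769 of calponin transcripts, so the family was almost wholly of the broadly expressed type. Tagln, the smooth muscle transgelin also called SM22, had 55.8, 49.1 and 50.003 CPM, or 26.0 ± 1.82 CPM per kb. Tagln2 had 481, 482 and 506 CPM, or 235 ± 6.78 CPM per kb. Tagln made up 10.8%, 9.64% and 9.39% of transgelin transcripts, a mean of 9.95% ± 0.774, which was the highest smooth muscle share of the 6 families compared. An antisense gene overlaps Tagln, and 51.7% of its 50-base stretches were free of other annotated transcripts. With length counted over such stretches alone, the Tagln share was 16.8%.

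Myosin II is a hexamer of heavy chains, essential light chains and regulatory light chains, and phosphorylation of the regulatory chain by the kinase encoded by Mylk switches the motor on. Myl9, the smooth muscle regulatory chain, had 27, 51 and 32 counts, or 1.75 ± 0.588 CPM per kb. Myl12a had 262, 317 and 289 CPM, or 86.1 ± 8.15 CPM per kb, and Myl12b had 70.7, 83.0 and 83.1 CPM, or 28.5 ± 2.56 CPM per kb. Myl9 made up 1.49% ± 0.371 of regulatory chain transcripts, and 0.543% of the uncorrected counts. Myl12a and Myl12b lie beside each other on chromosome 17 and share sequence, and 70.4% and 88.6% of their 50-base stretches occurred in no transcript of another gene. Myl6, the essential light chain, had 174, 209 and 207 CPM. Mylk had 63, 65 and 41 counts, or 3.15 ± 0.818 CPM.

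The heavy chains came from the nonmuscle genes. Myh11, the smooth muscle heavy chain, had 1, 6 and 0 counts. Myh10 had 115, 126 and 112 CPM, or 11.3 ± 0.735 CPM per kb, and Myh9 had 89.3, 83.7 and 96.7 CPM, or 6.95 ± 0.502 CPM per kb. Myh10, nonmuscle heavy chain IIB, thus stood 1.63 ± 0.221-fold above Myh9, heavy chain IIA, per kb of merged exons and without overlap of the libraries. The ratio was lower with other lengths, at 1.26 with the longest transcript, 1.32 without length correction and 1.25 with unique stretches. Myh11 made up 0.0924% ± 0.125 of heavy chain transcripts, with values between 0% and 0.235% in single libraries and a mean of 0.0213% without library 2. Of the thin filament regulators, Cald1, which encodes caldesmon in a smooth muscle and a nonmuscle splice form, had 762, 762 and 709.9 CPM. Lmod1, the smooth muscle leiomodin that nucleates filaments, had 2, 6 and 5 counts.

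**Figure D2:**
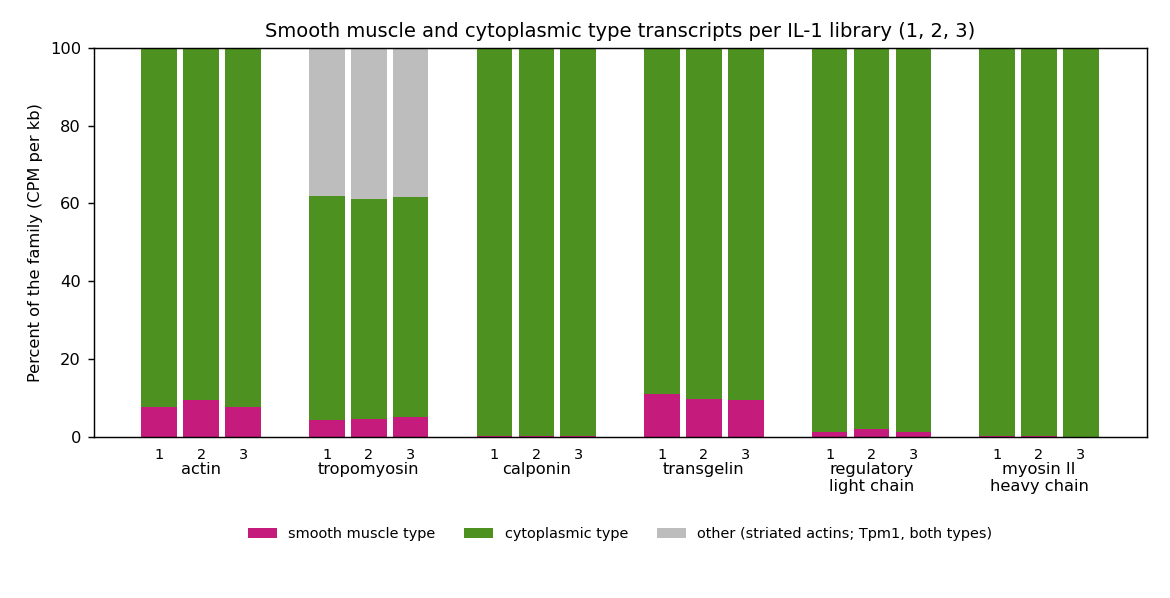
Smooth muscle, cytoplasmic and other transcripts as a percent of each family's CPM per kb, with 1 bar for each IL-1 library. All of Tpm2 is drawn as smooth muscle type. Smooth muscle actin lies at 7.69% to 9.29% and transgelin at 9.39% to 10.8%, while the smooth muscle calponin and myosin heavy chain shares are too small to see.

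The smooth muscle type genes therefore did not run together. Per kb, Acta2 stood 7.30 ± 0.801-fold above Tagln and 1037 ± 349-fold above Cnn1 (SD, n = 3), and Cnn1 had 6 to 12 counts a library. With all counts kept and length taken only over unique stretches, Acta2 stood 3.26-fold above Tagln. Of 8 further genes of smooth muscle identity, 4 reached 1 CPM in each library, against 41.3% of all gene IDs. Smtn, the contractile protein smoothelin, averaged 48.4 ± 3.84 CPM, the small heat shock protein gene Hspb6 34.6 ± 2.85 CPM, Des (desmin) 2.93 ± 0.214 CPM and Synpo2 1.55 ± 0.497 CPM. Myocd, which encodes myocardin, the SRF cofactor that drives the smooth muscle programme, had no count in any library. Kcnmb1, Pln and Synm were below 1 CPM in at least 1 library. The summed level of the 8 genes was 81.8 to 91.7 CPM.

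Other marker lists gave the setting of these levels, and 41.3% of all gene IDs reached 1 CPM in each library. All 7 fibroblast genes reached 1 CPM in each library, with a summed level of 6609 to 6745 CPM. Of 11 genes of the myofibroblast matrix and TGF-beta signalling, 9 did, with Fn1 (fibronectin) at 1122 ± 76.0 CPM and Postn (periostin) at 9.32 ± 3.98 CPM, while Loxl2 and Cthrc1 did not. Of the pericyte genes 1 of 5 did, Notch3, with Kcnj8 at 0 and a summed level of 6.85 to 9.37 CPM. Of 11 skeletal and cardiac muscle genes 2 did, Ttn and Tnnt3, with Myog and Tnni3 at 0 and a sum of 7.37 to 8.11 CPM. The macrophage list had 3 of 6 genes at that level and a sum of 10.6 to 17.5 CPM. No epithelial gene of 5 and no endothelial gene of 4 reached it, and their sums stayed below 1 CPM.

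Crosslinkers and adhesion proteins tie actin filaments to each other and, through integrins, to the matrix. Zyx, the stress fibre and adhesion protein zyxin, led this group with 577, 411 and 496 CPM, or 91.8 ± 15.5 CPM per kb. Flna, which encodes the crosslinker filamin A, had 364, 345 and 352 CPM, or 37.6 ± 1.03 CPM per kb. Vcl (vinculin), which reinforces adhesions under load, had 309, 289 and 309.9 CPM, or 36.97 ± 1.45 CPM per kb. The ranges of Flna and Vcl overlapped. Of the alpha-actinins, Actn4 had 169.9, 125 and 131 CPM and Actn1 had 109.6, 97.3 and 101 CPM, and Actn4 was the higher per kb in each library, by 1.25 ± 0.135-fold. Tln1, which encodes talin, the link from integrin to actin, had 85.8, 74.8 and 85.4 CPM, or 8.37 ± 0.634 CPM per kb. In Vcl, 60.8% of 50-base stretches were free of other annotated transcripts, the rest being shared with Ap3m1.

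Actin turnover genes were abundant. Pfn1, which encodes profilin, the carrier of actin monomers, had 1337, 1384 and 1467 CPM, or 580.4 ± 27.2 CPM per kb. Cfl1, which encodes the severing protein cofilin, had 756, 755 and 818 CPM, or 273 ± 12.7 CPM per kb. Pfn1 and Tpm1 overlapped in level per kb, as did Tagln2 and Cnn3. By merged exon length, 21 of the 41 pairs of neighbours in the order of levels had overlapping ranges.

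Further genes of actin assembly were nearly all detected. All 9 subunit genes of the ARP2/3 complex, which starts branched filaments, reached 1 CPM in each library, against 41.3% of all gene IDs. Arpc2 (258 ± 3.70 CPM per kb), Arpc1a (97.6 ± 3.17) and Arpc5 (96.0 ± 5.20) were the highest. Of 10 further turnover genes 9 reached that level. They were led by the depolymerizing factor Dstn at 379 ± 20.0 CPM per kb, the severing protein Gsn at 239 ± 5.78 and the capping protein Capzb at 87.2 ± 0.555. The one below it was Tmsb4x, listed with 2, 0 and 7 counts, which depend on the annotation and on counting settings that are not given and may not show its expression.

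The regulators had lower levels per kb than most of the structural genes. Srf had 15.9, 20.5 and 16.8 CPM, or 6.12 ± 0.836 CPM per kb. Its cofactor genes were close to each other, with 45.9, 44.8 and 47.6 CPM for Mrtfb and 32.9, 24.8 and 28.6 CPM for Mrtfa. Per kb, Mrtfb stood at 1.10 ± 0.143 of Mrtfa with overlapping libraries, and the order of the pair turned with the length used, to 0.859 with the longest transcript. Wwtr1, which encodes TAZ, had 89.6, 96.5 and 87.6 CPM, or 19.1 ± 0.974 CPM per kb, and Yap1 had 25.6, 26.1 and 24.8 CPM, or 2.75 ± 0.0752 CPM per kb. Wwtr1 was the higher of the pair in every library, by 6.93 ± 0.190-fold per kb and by 3.18-fold with the longest transcript as length. Tead1, a DNA-binding partner of both, had 107, 116 and 109 CPM, or 8.17 ± 0.356 CPM per kb. Of 12 other SRF cofactor and target genes, 11 reached 1 CPM in each library, against 41.3% of all gene IDs. They were led per kb by the LIM protein genes Fhl2 (154 ± 4.05), Csrp2 (96.1 ± 5.87) and Csrp1 (65.6 ± 5.16). All 19 other Hippo pathway and TEAD genes reached that level. The receptor kinase gene Axl led them at 76.7 ± 7.41 CPM per kb, before the LATS activator Mob1a at 18.2 ± 1.37 and the LATS inhibitor Ajuba at 13.97 ± 1.16.

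The YAP target genes had levels above those of the SRF, MRTF, YAP, TAZ and TEAD members per kb of merged exons. By CPM, which is not corrected for length, Ccn2 averaged 87.8, below Tead1 and Wwtr1. Ankrd1, a nuclear and sarcomeric ankyrin repeat protein, had 219, 207 and 203 CPM, or 72.6 ± 2.86 CPM per kb. Ccn1, a secreted matrix protein, had 226, 151 and 153 CPM, or 87.6 ± 21.1 CPM per kb. Ccn2, also called connective tissue growth factor, had 115, 80.4 and 68.2 CPM, or 30.7 ± 8.43 CPM per kb. All 3 were highest in library 1. Ccn1 and Ccn2 are also immediate targets of SRF and MRTF in fibroblasts, so their levels do not separate YAP from SRF activity.

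The 250 bases upstream of annotated RefSeq transcript starts (GRCm38.p6) were searched on both strands. The motifs were an exact CArG box, a CArG box with 1 base changed, and the TEAD motif GGAATG. The start used was not always the outermost start of the gene, and positions are counted from the start used. The Srf, Mylk and Zyx windows lay wholly within the gene's RefSeq span, and the Acta2, Myl9 and Cnn1 windows lay partly within it. Promoters were available for 36 of the 42 genes, in 43 windows. Those of Actb, Actg2, Tagln, Myh11, Ccn2 and Tead1 were missing, so these 6 genes were not searched. An exact CArG box was in 8 of the 43 windows (18.6%), against 1.47% of all 32851 promoters, and belonged to Acta1, Actc1, Actg1, Cnn2, Myl6, Myl9, Srf and Vcl. A box with 1 base changed was in 14 windows (32.6%), against 17.5% of all promoters. The TEAD motif was in 18 windows (41.9%) of 17 genes, against 12.6% of all promoters. These shares are a description of letters in short windows and show no binding. Genes with an exact box spanned the range of levels, from Cnn2 at 516 CPM per kb to Actc1 at 0.0230. The 6 promoters that follow are those of the smooth muscle genes with high (Acta2), low (Myl9) and nearly no (Cnn1) counts, of Srf itself, and of 2 YAP target genes. They are written 5′ to 3′ along the gene and end 1 base before the start, and capitals mark exact and 1-base-changed CArG boxes and TEAD motifs.
Acta2 promoter (chr19:34255374-34255623, minus strand): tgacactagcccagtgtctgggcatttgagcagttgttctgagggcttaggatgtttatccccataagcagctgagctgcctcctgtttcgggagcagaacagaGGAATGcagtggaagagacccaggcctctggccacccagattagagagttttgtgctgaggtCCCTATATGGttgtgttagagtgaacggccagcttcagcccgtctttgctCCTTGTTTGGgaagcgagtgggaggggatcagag
Myl9 promoter (chr2:156775214-156775463, plus strand): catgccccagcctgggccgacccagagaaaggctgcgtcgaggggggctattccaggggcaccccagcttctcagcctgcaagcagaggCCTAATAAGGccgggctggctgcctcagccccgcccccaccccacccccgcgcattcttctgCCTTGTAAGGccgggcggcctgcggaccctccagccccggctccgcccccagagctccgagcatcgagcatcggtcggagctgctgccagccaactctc
Cnn1 promoter (chr9:22099003-22099252, plus strand): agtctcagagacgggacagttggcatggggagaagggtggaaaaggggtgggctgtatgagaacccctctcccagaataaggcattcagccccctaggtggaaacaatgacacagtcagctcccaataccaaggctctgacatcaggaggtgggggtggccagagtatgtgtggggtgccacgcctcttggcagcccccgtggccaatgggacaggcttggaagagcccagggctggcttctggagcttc
Srf promoter (chr17:46556163-46556412, minus strand): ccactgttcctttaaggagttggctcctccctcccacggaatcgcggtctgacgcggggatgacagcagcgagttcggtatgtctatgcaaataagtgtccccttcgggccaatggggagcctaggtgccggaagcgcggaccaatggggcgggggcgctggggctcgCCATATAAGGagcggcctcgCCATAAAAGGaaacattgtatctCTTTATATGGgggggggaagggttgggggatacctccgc
Ccn1 promoter (chr3:145649986-145650235, minus strand): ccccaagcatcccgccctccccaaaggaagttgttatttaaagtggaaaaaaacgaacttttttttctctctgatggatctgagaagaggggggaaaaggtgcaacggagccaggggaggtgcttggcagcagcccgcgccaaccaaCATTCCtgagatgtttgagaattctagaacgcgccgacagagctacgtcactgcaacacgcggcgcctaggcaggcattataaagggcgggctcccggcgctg
Ankrd1 promoter (chr19:36119845-36120094, minus strand): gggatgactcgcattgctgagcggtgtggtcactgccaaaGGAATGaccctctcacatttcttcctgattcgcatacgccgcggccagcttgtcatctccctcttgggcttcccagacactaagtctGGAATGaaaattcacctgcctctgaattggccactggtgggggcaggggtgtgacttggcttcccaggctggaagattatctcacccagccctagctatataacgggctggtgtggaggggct
The Acta2 window held no exact CArG box, but 2 with 1 base changed, whose first bases lay at -84 and -34 from the start, and a TEAD motif at -146. The Myl9 window held an exact box at -161 and a changed one at -99, although Myl9 had only 27 to 51 counts a library. The Cnn1 window held none of the motifs. Srf, which is known to act on its own promoter, had exact boxes at -82 and -62. Ccn1 had a TEAD motif at -103, read on the opposite strand, and Ankrd1 had TEAD motifs at -210 and -123.

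**Figure D3:**
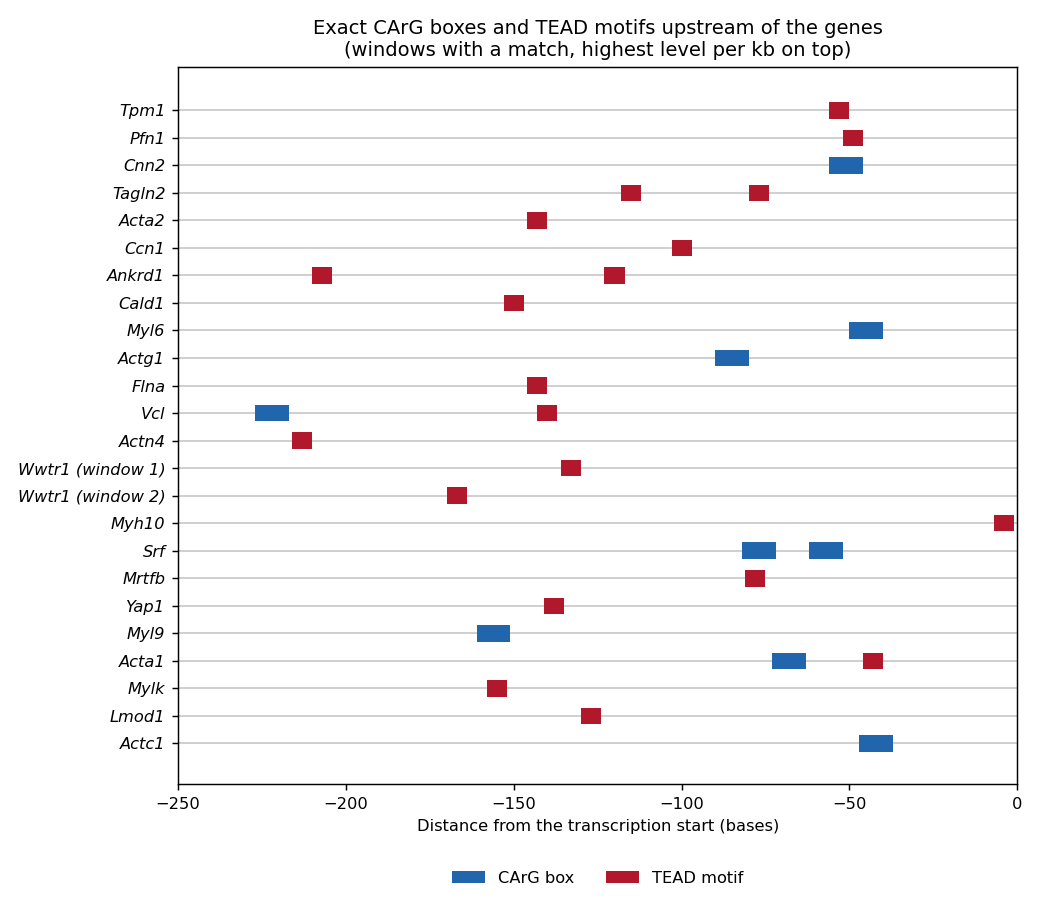
Exact CArG boxes and TEAD motifs in the 250 bases upstream of the annotated transcript start used, for each window with a match. The gene of highest level per kb is on top. The horizontal axis is the distance from the transcription start in bases, and Vcl and Acta1 hold both motifs. Actb, Actg2, Tagln, Myh11, Ccn2 and Tead1 had no promoter to search.

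Differences between the libraries were largest for Ccn2, Ccn1, Mylk and Myl9. Among the 37 genes at 1 CPM or more, 13 were highest in library 1, against 45.7% of all such genes, 13 in library 2, against 27.1%, and 11 in library 3, against 27.3%. Library 1 was at least 1.2-fold above the others' mean, on the CPM + 0.5 scale, for 6 of the 37 genes, against 15.4% of all genes. These were Ccn2 (1.55-fold), Ccn1 (1.48), Actn4 (1.33), Zyx (1.28), Mylk (1.25) and Mrtfa (1.23). It was as far below for 1 gene, Myl9 (0.760), against 7.67% of all genes. Library 2 was above for 3 genes, against 5.01% of all genes, namely Myl9, Srf and Mylk, and below for 4, against 13.4%, namely Zyx, Mrtfa, Ccn1 and Actg2. Library 3 was above for 0 genes, against 6.37%, and below for 3, against 6.47%, namely Mylk, Ccn2 and Ccn1. With 37 genes these counts are small, and whether they differ from the shares over all genes was not tested.

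By role, 5 of the 6 crosslinker and adhesion genes and all 3 YAP target genes were highest in library 1. So were 14 of the 19 other Hippo pathway and TEAD genes, against 45.7% of all genes at 1 CPM or more. Among those crosslinker and adhesion genes, library 1 stood between 1.04-fold (Flna) and 1.33-fold (Actn4) of the others' mean on the CPM + 0.5 scale. Tln1 was nearly level in libraries 1 and 3, at 85.8 and 85.4 CPM. For the YAP target genes it stood at 1.07-fold (Ankrd1), 1.48-fold (Ccn1) and 1.55-fold (Ccn2). No difference by role was tested. All 3 YAP, TAZ and TEAD members were highest in library 2, against 27.1% of all genes. They reached no more than 1.09-fold of the others' mean on the CPM + 0.5 scale. Across the 37 genes the median coefficient of variation (CV) over the 3 libraries was 6.18%, against 8.56% over all 11224 genes at 1 CPM or more, and at 100 CPM or more it was 4.67% for 24 members and 5.39% for 2305 genes. The CV ran from 1.14% for Cnn2 to 33.6% for Myl9, and 9 of the 37 genes exceeded 10%. Counting error alone gives a CV of 16.5% for Myl9 and 1.78% for Ccn1, whose CV was 24.0%. Over all 10783 genes with a length, the ratio of library 1 to the others was positively related to merged exon length (Pearson r 0.290 on log2 values across genes, which are not independent replicates), and over the 37 members r was 0.155. Its part in the differences of Ccn1, Ccn2 and Zyx was not tested.

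**Figure D4:**
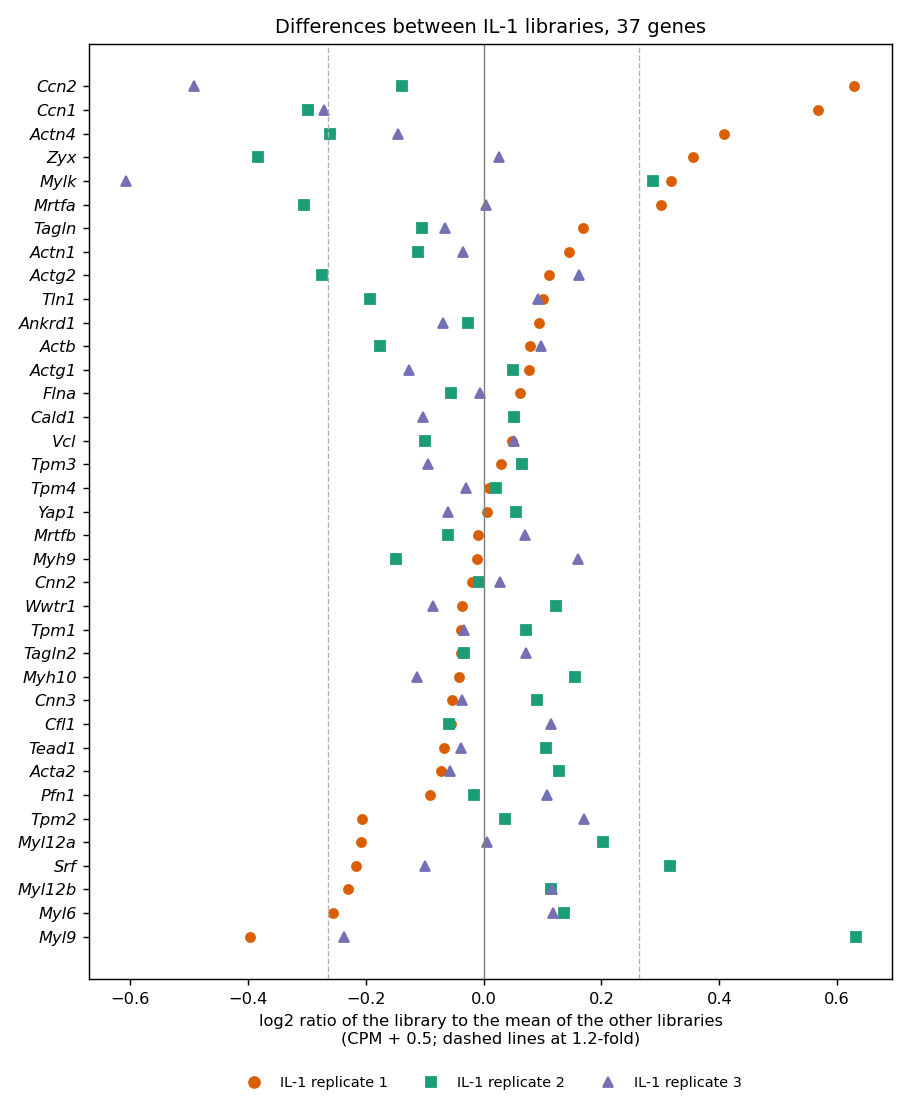
Log2 ratio of each IL-1 library to the others' mean (CPM + 0.5) for the 37 genes at 1 CPM or more, ordered by the ratio of replicate 1, with dashed lines at 1.2-fold. Ccn2 and Ccn1 lie farthest to the right in replicate 1, at 1.55-fold and 1.48-fold, and most genes lie between the dashed lines in all 3 libraries.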

How the data were processed

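PolyA RNA of RelA-/- RelA-DsRed NIH3T3 cells was measured in 3 IL-1 libraries. The authors deposited whole-number counts for each Entrez gene ID, not normalized. The submitters' processing notes name CASAVA, STAR, featureCounts and the build mm10. Tool versions, annotation, strand setting and the treatment of multi-mapping reads: not given in the sources used here. The labels' protocols describe reverse transcription directly in lysate, pre-amplification and a NexteraXT kit without mention of molecular identifiers, so limits cover counting error only. All 9 LPS, PAM and media tables matched the IL-1 replicate 3 table byte for byte and were left out.

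CPM was computed on total counts (17254518 to 18578859). Lengths of merged exons and 50-base stretches came from GENCODE M21 (GRCm38), with a length for 21610 IDs. Symbols came from a RefSeq table that matched 25275 IDs. Coordinates and promoters came from RefSeq and GRCm38.p6. Ratios and shares were taken within a library and given as mean ± SD over 3. With 1 group, no test between conditions was possible. The calculation of shares was checked on simulated counts. Python 3.11.15, numpy 2.4.6, pandas 2.3.3, R 4.3.3 and edgeR 4.0.16 (scaling factors only) were used. The genes and lists were chosen with earlier results of these data known. All 42 genes are named; of each other pathway list the 3 highest per kb are named, and of the marker lists the genes discussed. One pathway list is not reported here. Tmsb4x was named after its values were seen.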

Additional observations from a re-analysis of the deposited data

How the results depend on the processing

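There were 72 alternatives to the 9 main values. Of these, 56 stayed within 1 SD of the reported value, or within 1.5 times for a count, and 16 moved, all with another length. Many of the 56 could not have moved. Leaving out 1 library always shifts the mean of a share or ratio by less than 1 SD, and scaling factors cancel in it. The count of 56 is therefore no measure of robustness. Other lengths were the longest transcript, no length correction and the bases of unique 50-base stretches, the last chosen after seeing the data. In that order, the smooth muscle share was 6.49%, 6.83% and 5.53% for actin, and 0.948%, 0.543% and 0.711% for the regulatory light chain. The share of the whole Tpm2 gene in tropomyosin was 3.95%, 3.36% and 3.43%. The ratio of Wwtr1 to Yap1 was 3.18, 3.58 and 3.12, and that of Mrtfb to Mrtfa was 0.859, 1.62 and 0.879. With unique stretches the transgelin share was 16.8%. Of 57 settings for 19 other gene ratios, also chosen after seeing the data, 15 stayed within 1 SD, 36 moved and 6 turned direction. With those lengths in the same order, Tpm1 over Tpm4 turned to 1.55, 2.10 and 1.29, and Tpm2 over Tpm3 to 0.769, 0.749 and 0.289. Leaving out 1 library gave 7.70% to 8.49% for actin, 9.51% to 10.2% for transgelin, 4.40% to 4.81% for tropomyosin, 1.27% to 1.60% for the regulatory light chain, 0.0233% to 0.0305% for calponin and 0.0213% to 0.139% for the myosin heavy chain, 6.82 to 6.999 for Wwtr1 over Yap1 and 1.04 to 1.18 for Mrtfb over Mrtfa. The myosin range rests on library 2, which held 6 of the 7 Myh11 counts. Members detected stayed at 37 under other scaling factors, without each library and at 0.5 CPM, and were 35 at 2 CPM. Scaling factors (TMM and relative log expression, 0.981 to 1.02) cancel within a library. Adding pseudogene counts was possible for the regulatory light chain, at 1.48%, and was not run for the other families, for which no such row was used. No paired analysis was possible because a single group was described. Depth limits Actg2, Myl9, Mylk, Cnn1, Lmod1, Myh11, Acta1 and Actc1, whose counts were below 100 in each library.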
